A study of Homo sapiens with 8 samples.

Results

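The genes described here are 10 genes of lipid transport, chosen by name for their role: the apolipoproteins APOB, APOA1, APOA4, APOC3 and APOM, the lipid transfer subunit MTTP, the fatty acid binding proteins FABP1 and FABP2, the transcription factor CREB3L3 and the RNA-binding protein A1CF. The table held 8 of them among 30755 gene symbols, and APOA4 and APOC3 were not analysed here. Of the 8 genes, CREB3L3 was listed at 0 in all 4 libraries, 4 had a mean under 10 normalized counts and 3, A1CF, FABP2 and APOM, were above that value and were tested. The name of the group therefore describes what these genes do in liver and intestine, and most of them gave little or no signal in these cells.

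Expression was measured by RNA-seq in ESO26, an established cell line from an adenocarcinoma of the oesophagus. The knockdown group was 2 libraries of cells with siRNA against HNF4A, a nuclear receptor that binds DNA in liver, pancreas and gut epithelium, and the control group was 2 libraries labelled only as control. An siRNA is a short double-stranded RNA that leads the cell to cut mRNAs with its sequence. The labels used here give neither the time after transfection nor the sequence of a control siRNA, and nothing says that the libraries came from separate cultures, so the p-values measure the spread between these libraries, which may be technical.

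Dietary and newly made triglyceride leaves enterocytes and hepatocytes in lipoprotein particles built on APOB. MTTP, bound to the chaperone P4HB, loads lipid onto APOB in the endoplasmic reticulum, and COPII-coated vesicles carry the particle onward. APOA1, APOA4, APOC3 and APOM are smaller apolipoproteins on the particle surface, FABP1 and FABP2 hold fatty acids in the cytosol, CREB3L3 is a membrane-bound factor released by proteolysis, and A1CF is an RNA-binding partner of the deaminase APOBEC1, which edits APOB mRNA so that the short form of the protein is made. Many of these genes are known as targets of HNF4A in liver and intestine.

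The 250 bases before the start of 3 genes are shown, because FABP1 is a gene with a low value in both knockdown libraries while FABP2 and A1CF had between 443.5 and 737 normalized counts in every library. Normalized counts are not per transcript length, so they say how well a gene was measured and do not rank expression between genes. The sequences are RefSeq's for GRCh38.p14, which is another build than the hg19 named in the submitters' processing notes, and are written 5′ to 3′ on the strand of the gene. Capitals mark matches to the motifs described after them. FABP1 lies at chr2:88128063-88128312 on the minus strand, FABP2 at chr4:119322139-119322388 on the minus strand and A1CF at chr10:50885628-50885877 on the minus strand.
FABP1: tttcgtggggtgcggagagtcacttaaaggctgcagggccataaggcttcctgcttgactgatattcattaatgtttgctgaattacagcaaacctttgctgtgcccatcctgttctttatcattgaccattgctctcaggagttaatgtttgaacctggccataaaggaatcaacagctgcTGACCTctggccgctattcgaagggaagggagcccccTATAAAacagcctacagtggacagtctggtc
FABP2: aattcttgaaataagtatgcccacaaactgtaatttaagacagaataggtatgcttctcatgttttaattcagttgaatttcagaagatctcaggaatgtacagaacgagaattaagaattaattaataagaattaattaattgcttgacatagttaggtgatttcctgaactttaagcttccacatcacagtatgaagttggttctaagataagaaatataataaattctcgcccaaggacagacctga
A1CF: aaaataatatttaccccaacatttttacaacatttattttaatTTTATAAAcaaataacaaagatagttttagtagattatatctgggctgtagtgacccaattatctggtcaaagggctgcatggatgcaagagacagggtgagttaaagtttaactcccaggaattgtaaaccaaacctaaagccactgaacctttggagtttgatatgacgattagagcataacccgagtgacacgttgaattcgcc

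Of the 10 genes 7 had a RefSeq promoter entry, with 8 windows of 300 bases in all, 250 before and 50 after the start. The HNF4-type motifs CAAAGTCCA and CAAAGGTCA, searched on both strands, were in none of the 8 windows, and 0.384% and 0.407% of all 35116 promoter windows held them. Absence says only that these letters are not in this window. TATAAA was in the windows of FABP1, where it began 31 bases before the start, MTTP and A1CF, and in 11.5% of all windows; in A1CF matches on both strands overlap. AGGTCA, a core element that nuclear receptors bind and a motif added after the sequences were seen, was in the windows of FABP1, MTTP and CREB3L3 and in 13.8% of all windows. FABP2 held none of the 4 motifs. None of these letters was tested as a binding site.

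As a check of the labels, HNF4A itself had 4129 and 3937 normalized counts in the controls and 1139.8 and 932 after knockdown, a mean of 25.7% of that in the controls. The groups lie far apart, with a log2 fold change of -1.97 (95% interval -2.18 to -1.75, adjusted p = 1.59e-05 in limma). Log2 fold changes here are of log2(normalized count + 1), knockdown minus control, from limma fitted to every gene averaging 10 or more normalized counts. A gene was called at a Benjamini-Hochberg adjusted p under 0.05. In bulk RNA a change in the share of cells that express a gene and a change in RNA per cell cannot be told apart.

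**Figure D1:**
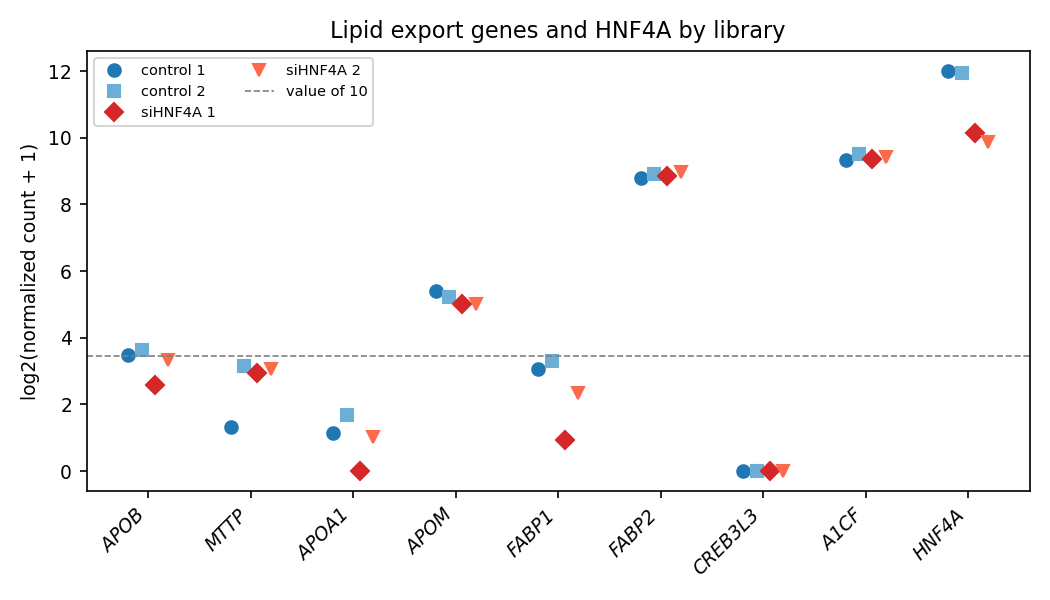
Log2(normalized count + 1) of the 8 lipid export genes in the table and of HNF4A, 1 point per library; the dashed line is a value of 10. The control and knockdown values of FABP2 and of A1CF overlap while HNF4A is lower in both knockdown libraries, and CREB3L3 is at 0.

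Of the 3 tested genes 0 were called in limma, and 0 had an unadjusted p under 0.05. Of all 15577 tested genes 14.1% were called, 6.02% higher and 8.11% lower. With so few members tested, that count does not set them apart from the rest.

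APOB, the structural protein of chylomicrons and very low density lipoprotein, had 10.2 and 11.3 normalized counts in the control libraries and 4.97 and 8.97 in the knockdown libraries. Both knockdown values were below both control values, and siHNF4A 1 was the lowest library. The control mean was 10.7 ± 0.816 and the knockdown mean 6.97 ± 2.83 (SD, n = 2 in each group), and the gene was not tested because its mean over the 4 libraries, 8.86, was under 10. In the fit without that filter the log2 difference was -0.60 with a 95% interval from -1.81 to 0.60 and an adjusted p of 0.626 in limma. The difference was -0.24 without siHNF4A replicate 1 and -0.97 without siHNF4A replicate 2, so its size rested on the knockdown library used.

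MTTP had 1.51 and 7.95 normalized counts in the control libraries and 6.65 and 7.34 in the knockdown libraries. The groups overlap, since control 2 was the highest library and control 1 the lowest. The log2 difference was 0.75 with a 95% interval from -1.02 to 2.53 in the fit without the filter (adjusted p = 0.667 in limma), and it became -0.16 without control replicate 1 and 1.67 without control replicate 2. P4HB, the partner of MTTP in the transfer complex, had 13689 and 14222 normalized counts in the control libraries and 15056 and 14095 in the knockdown libraries, and was not called (log2 fold change 0.062, adjusted p = 0.493 in limma).

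Among the smaller apolipoproteins, APOA1, the main protein of high density lipoprotein, had 1.23 and 2.22 normalized counts in the control libraries and 0 and 1.01 in the knockdown libraries. In each library the most frequent low value, taken among genes above 0 in that library only and below 1.5, was 1.23 and 1.11 in the controls and 0.9 and 1.01 after knockdown. APOA1 stood at 1.0, 2.0, 0.0 and 1.0 of these steps. The antisense gene APOA1-AS overlaps APOA1 and had 1.21 and 0 normalized counts in the control libraries and 1.81 and 0 in the knockdown libraries. No change in APOA1 was detectable in these libraries (log2 difference -0.92, 95% interval -2.44 to 0.61, adjusted p = 0.549 in limma without the filter). The difference was -0.41 without siHNF4A replicate 1, -1.42 without siHNF4A replicate 2 and -0.29 with a pseudocount of 5.

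APOM, which carries sphingosine 1-phosphate on high density lipoprotein, was the one apolipoprotein of the list that was tested. It had 41.3 and 36.1 normalized counts in the control libraries and 31.2 and 31.3 in the knockdown libraries. The knockdown values lay below both control values, but the log2 fold change of -0.30 (SE 0.30) was not past the threshold (95% interval -0.97 to 0.37, adjusted p = 0.567 in limma, and 0.221 to 0.790 over its alternatives). APOM overlaps BAG6 in RefSeq, and BAG6 had 6435 and 6556 normalized counts in the control libraries and 6486 and 6574 in the knockdown libraries. Whether the counting separated reads of the overlap is not given in the sources used here, so the level of APOM is uncertain.

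**Figure D2:**
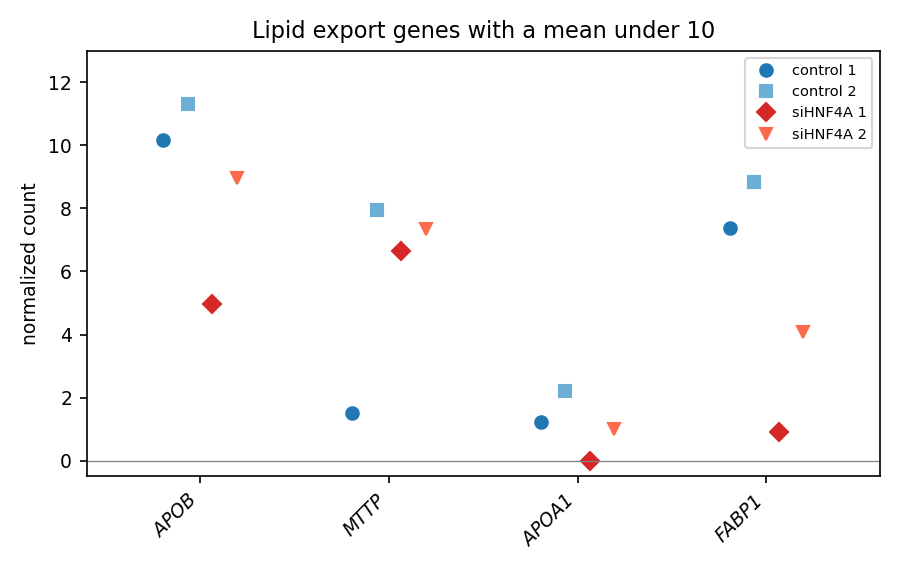
Normalized counts of the 4 genes with a mean above 0 and under 10, 1 point per library. Both knockdown libraries lie below both control libraries for APOB, APOA1 and FABP1, and not for MTTP, where control 1 is the lowest library at 1.51.

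FABP1, the fatty acid binding protein of hepatocytes and proximal enterocytes, had 7.37 and 8.83 normalized counts in the control libraries and 0.924 and 4.08 in the knockdown libraries. The groups do not overlap, and the knockdown mean of 2.50 ± 2.23 was 30.9% of the control mean of 8.10 ± 1.03 (SD, n = 2 in each group). Counted in the steps given for APOA1, these are 6.0 and 8.0 steps in the control and 1.0 and 4.0 in the knockdown, while the steps themselves were smaller in the knockdown libraries. Without the filter the log2 difference was -1.54 (SE 0.65), with a 95% interval from -3.14 to 0.062, and its adjusted p was 0.319 in limma (unadjusted p = 0.0569). It was -0.84 without siHNF4A replicate 1 and -2.24 without siHNF4A replicate 2, and -0.83 with a pseudocount of 5.

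FABP2, the intestinal member of the same family, had 444 and 477 normalized counts in the control libraries and 463 and 497 in the knockdown libraries. The groups overlap, with means of 460.1 ± 23.5 and 479.9 ± 24.3 (SD, n = 2 in each group). The log2 fold change was 0.061 (SE 0.11), and its 95% interval from -0.19 to 0.31 holds no value near that of HNF4A (adjusted p = 0.763 in limma, and 0.660 to 0.984 over its alternatives). It lay between 0.0086 without control replicate 1 and 0.113 without control replicate 2. The difference between the changes of FABP1 and FABP2 was not tested.

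CREB3L3, which switches on lipid export genes in liver and intestine, was listed at 0 in all 4 libraries, so no fold change exists. A1CF had 651 and 737 normalized counts in the control libraries and 662 and 681 in the knockdown libraries. Both knockdown values fell between the control values. The means were 694 ± 61.1 and 671 ± 12.97 (SD, n = 2 in each group), with a log2 fold change of -0.044 and a 95% interval from -0.27 to 0.18 (adjusted p = 0.814 in limma, and 0.529 to 0.963 over its alternatives). Without control replicate 2 the fold change was 0.045.

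**Figure D3:**
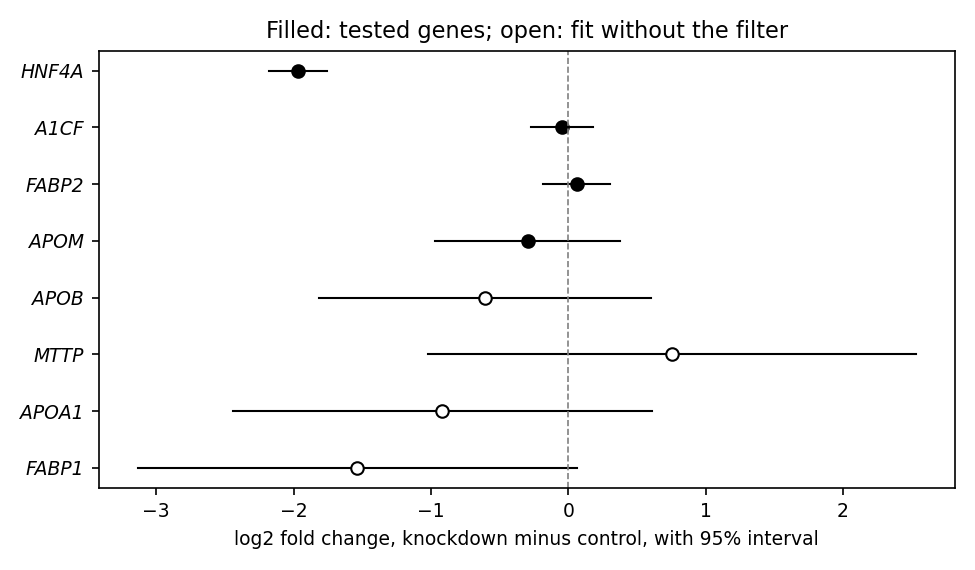
Log2 fold change, knockdown minus control, with its 95% interval from limma, for HNF4A and 7 lipid export genes; filled points are tested genes and open points come from the fit without the filter. The intervals of all 7 lipid export genes include 0, and that of HNF4A runs from -2.18 to -1.75.

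Over the 7 genes above 0, both knockdown libraries lay below both control libraries for 4 (APOB, APOA1, APOM and FABP1), above them for 0 and neither for 3 (MTTP, FABP2 and A1CF). Among all 30247 genes above 0, 21.6% were separated downward and 22.0% upward. Counted in the steps given for APOA1, APOB stood at 8.3 and 10.2 in the control libraries and 5.5 and 8.9 in the knockdown libraries. APOM stood at 33.6 and 32.6 in the control libraries and 34.7 and 31.0 in the knockdown libraries. In steps the groups of APOB and of APOM overlapped, and APOA1 stood at 1.0 in both control 1 and siHNF4A 2. FABP1 stayed separated. The fit without the filter called 0 of the 7 genes in limma, with 0 at an unadjusted p under 0.05, and 2.40% of all genes above 0.

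The genes that work beside A1CF were then described. The table held 8 genes of APOB mRNA editing, of which 6 were tested, 1 rose and 1 fell, which is 33.3% called against 14.1% of all tested genes. Their median log2 fold change was -0.055 (0.005 after quantile normalization), against -0.007 over all tested genes. RBM47, an RNA-binding cofactor of the editing enzyme, had 4905 and 4971 normalized counts in the control libraries and 6007 and 6465 in the knockdown libraries, and rose by 0.34 on the log2 scale (adjusted p = 0.00605 in limma, 0.0637 without siHNF4A replicate 2). HNRNPR, a relative of the A1CF-binding protein SYNCRIP, fell by 0.33 (adjusted p = 0.00544 in limma). APOBEC1, the deaminase itself, had 69.6 and 59.6 normalized counts in the control libraries and 38.1 and 28.4 in the knockdown libraries. The knockdown mean was 51.5% of the control mean and the groups did not overlap, but the log2 fold change of -0.95 (SE 0.29) was not past the threshold (adjusted p = 0.0537 in limma, and 0.0373 to 0.245 over its alternatives). It was called with the replicate number as a block (adjusted p = 0.0406 in limma) and after quantile normalization (adjusted p = 0.0373).

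CREB3L1, a relative of CREB3L3 with a like structure, was called higher. It had 144 and 122 normalized counts in the control libraries and 333 and 315 in the knockdown libraries, so that every knockdown value was more than 2 times each control value. Its log2 fold change was 1.28 (SE 0.15, adjusted p = 8.52e-04 in limma). CREB3, CREB3L2 and CREB3L4, the other relatives, were not called, with log2 fold changes of 0.043, -0.20 and 0.27. Of the 15 genes of the CREB3 family and of endoplasmic reticulum stress, all tested, 2 rose and 3 fell, which is 33.3% called against 14.1% of all tested genes, with a median of 0.050 (0.003 without control replicate 1 and 0.108 without control replicate 2). ATF6, a stress sensor cleaved in the Golgi, rose by 0.28, while XBP1, ERN1 (the sensor that splices XBP1 mRNA) and MBTPS2 (a protease that releases factors of this kind from membranes) fell by 0.29, 0.41 and 0.40. These 4 calls rested on few libraries: ATF6 was not called without any 1 of the 4 libraries (adjusted p = 0.200 without siHNF4A replicate 2), XBP1 and ERN1 without control replicate 2 or either knockdown replicate (up to 0.178 and 0.0836), and MBTPS2 without either knockdown replicate (up to 0.0943), each in limma.

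The table held 25 genes of lipoprotein assembly and secretion, of which 23 were tested, 6 fell and 1 rose, which is 30.4% called against 14.1% of all tested genes, and the median was -0.13 (-0.087 without control replicate 2). SURF4, a cargo receptor of the endoplasmic reticulum that binds lipoproteins, had 6607 and 7131 normalized counts in the control libraries and 4943 and 4666 in the knockdown libraries, and fell by 0.52 on the log2 scale (adjusted p = 9.61e-04 in limma). SEC23A and SEC24D, subunits of the COPII coat, fell by 0.58 and 0.42 (adjusted p = 0.00109 and 0.00720 in limma). SEC23A had 2922 and 3129 normalized counts in the control libraries and 2104 and 1953 in the knockdown libraries. LMAN1 and MCFD2, a receptor pair best known for clotting factors and named after their values were seen, fell by 0.43 and 0.25. LMAN1 was not called without siHNF4A replicate 1 (adjusted p = 0.0586 in limma), and MCFD2 was not called without control replicate 1 (0.0502), without siHNF4A replicate 1 (0.212) or after quantile normalization (0.0813).

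PRAP1, a secreted protein of the gut that binds lipid for MTTP, had 140.2 and 150.1 normalized counts in the control libraries and 91.9 and 64.7 in the knockdown libraries. It fell by 0.90 on the log2 scale, to 53.9% of the control mean (adjusted p = 0.0241 in limma, 0.144 without siHNF4A replicate 2), and it shares its locus with the readthrough gene ZNF511-PRAP1. TMEM41B, a lipid scramblase of the endoplasmic reticulum, rose by 0.57, from 753 and 843 normalized counts in the control libraries to 1107 and 1269 in the knockdown libraries (adjusted p = 0.00565 in limma). Other genes of vesicle export in the list, SAR1A, SEC24A, PREB, TMED10, MIA3 and KLHL12, were not called. SAR1B, the COPII GTPase whose loss causes chylomicron retention, had 798 and 893 normalized counts in the control libraries and 747 and 705 in the knockdown libraries, and was not called (log2 fold change -0.22, adjusted p = 0.171 in limma).

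**Figure D4:**
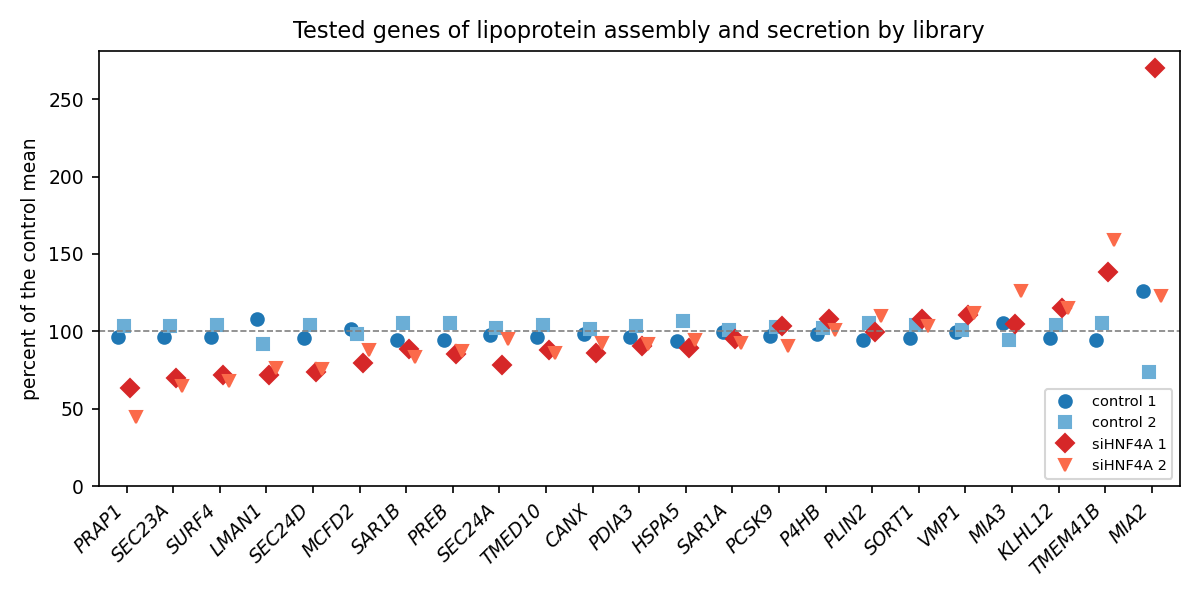
Each library as a percent of the control mean for the 23 tested genes of lipoprotein assembly and secretion, ordered by fold change, 1 point per library. PRAP1, SEC23A and SURF4 lie at the low end and TMEM41B at the high end with both knockdown libraries apart from both controls, and MIA2 at the far right has 1 high knockdown library.

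Other genes feed lipid into this pathway. The table held 28 genes of fatty acid uptake and triglyceride synthesis, of which 22 were tested. Of these 3 fell and 0 rose, which is 13.6% called against 14.1% of all tested genes. Their median was -0.094 (-0.024 without siHNF4A replicate 2 and -0.158 without siHNF4A replicate 1). LPIN2, a phosphatidate phosphatase of triglyceride synthesis, fell by 0.59, from 4995 and 4676 normalized counts in the control libraries to 3302 and 3107 in the knockdown libraries (adjusted p = 5.78e-04 in limma). SCARB1, a receptor for high density lipoprotein, fell by 0.55, from 2142 and 2112 to 1521 and 1382 normalized counts (adjusted p = 0.00178 in limma). PNPLA2, which starts the breakdown of stored triglyceride, fell by 0.42 (adjusted p = 0.0316 in limma) and was not called without control replicate 2 or either knockdown replicate (up to 0.148). MGLL had the largest fold change among the tested genes of the list, -0.69, without passing the threshold (adjusted p = 0.165 in limma).

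The table held 16 other apolipoproteins, of which 10 were tested and 1, APOL6, fell by 0.40 (adjusted p = 0.0310 in limma; 0.188 without siHNF4A replicate 1 and 0.0645 without control replicate 2). That is 10.0% of the tested genes of this list called, against 14.1% of all tested genes. APOE had between 7.26 and 14.7 normalized counts over the 4 libraries, and APOD had 25.5 and 47.2 in the control libraries and 19.5 and 21.4 in the knockdown libraries, without a call. It held 10 other fatty acid or retinoid binding proteins, of which 7 were tested and 0 were called, with a median of -0.17. RBP2, an intestinal retinol binding protein, had 17.9 and 11.6 normalized counts in the controls and 4.35 and 10.7 after knockdown (log2 fold change -0.97, adjusted p = 0.298 in limma, and -0.40 without siHNF4A replicate 1 and -1.53 without siHNF4A replicate 2). FABP5, the epidermal relative of FABP1 and FABP2, had 759 and 872 normalized counts in the control libraries and 691 and 700 in the knockdown libraries (log2 fold change -0.23, adjusted p = 0.169 in limma).

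Of 11 tested lipoprotein receptors, lipases and sterol exporters 2 fell and 0 rose, which is 18.2% called against 14.1% of all tested genes. LRP1, a receptor for remnant particles, fell by 0.60 (adjusted p = 0.0157 in limma) and LRP5, a Wnt coreceptor of the same family, by 0.32 (adjusted p = 0.0144), and neither was called without siHNF4A replicate 2 (0.0994 and 0.119). ABCA1, which loads lipid onto APOA1, had 8.28 and 9.69 normalized counts in the control libraries and 27.7 and 21.5 in the knockdown libraries, and was not past the threshold (log2 fold change 1.35, adjusted p = 0.0654 in limma, and 0.0599 to 0.322 over its alternatives). Of 8 tested genes that flank the APOA1 cluster on chromosome 11, 0 were called, with a median of 0.062 (0.027 without siHNF4A replicate 1). ZNF259, now named ZPR1, had 1327 and 1322 normalized counts in the control libraries and 1385 and 1347 in the knockdown libraries, beside the values of 0 to 2.22 of APOA1.

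Among 21 tested regulators of lipid genes 3 rose and 1 fell, which is 19.0% called against 14.1% of all tested genes, with a median of 0.096 (0.157 without control replicate 1). PROX1, a homeodomain factor known to bind HNF4A, rose by 1.37, from 29.4 and 37.5 to 75.7 and 100.4 normalized counts (adjusted p = 0.0104 in limma, 0.105 without siHNF4A replicate 2). HNF4G and FOXA3 also rose, by 0.35 and 0.52, and were not called without siHNF4A replicate 1 (adjusted p = 0.0543 and 0.107 in limma) or replicate 2 (0.0826 and 0.110), nor FOXA3 without control replicate 1 (0.0901).

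**Figure D5:**
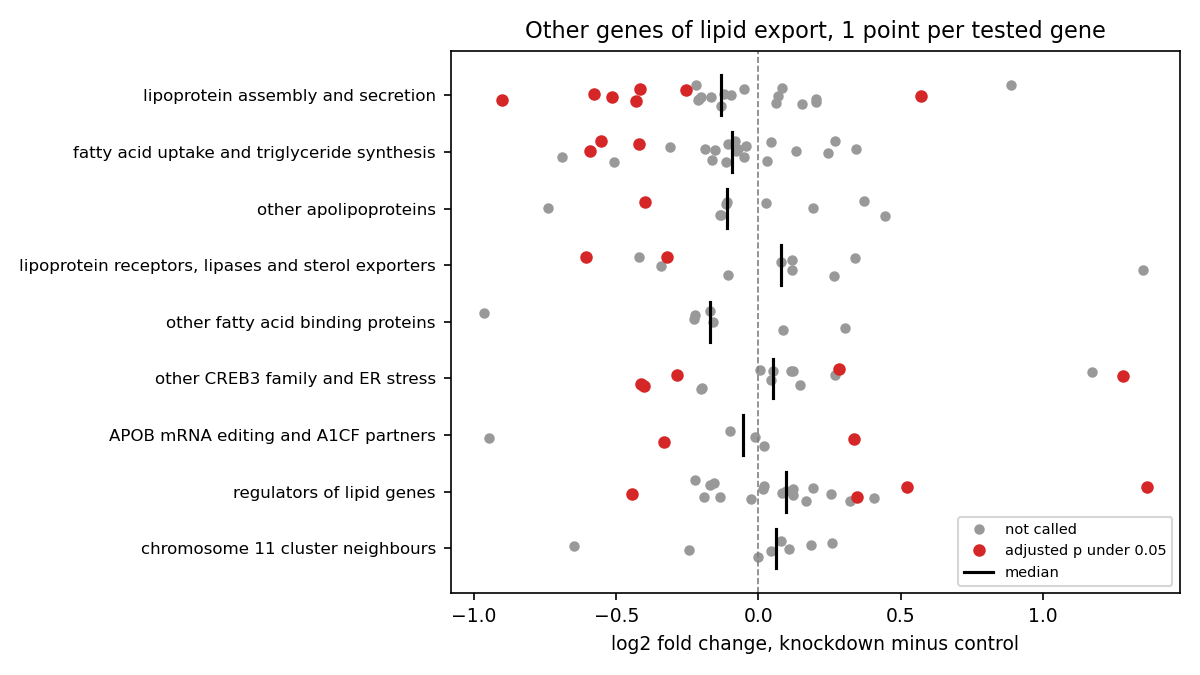
Log2 fold change of each tested gene in 9 lists of related genes, with called genes in red and the list median as a bar. Red points of lipoprotein assembly and secretion lie mostly to the left, PROX1 and CREB3L1 are the red points furthest right, and 0 points are red for other fatty acid binding proteins and for the chromosome 11 neighbours.

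The shares called per list were set beside those of all tested genes without matching for level. Of the 25 genes of lipoprotein assembly and secretion in the table, 22 had a mean of at least 100. The SE was larger for lower genes, as for APOM (0.30) beside FABP2 (0.11). Over the 9 lists together 123 genes were tested, 17 fell and 7 rose, which is 19.5% called against 14.1% of all tested genes. Of the 24 called genes 8 were called in each of the 4 fits that left out 1 library: SURF4, SEC23A, SEC24D, TMEM41B, LPIN2, SCARB1, HNRNPR and CREB3L1. Of these 8 genes TMEM41B was not called in the fit without the filter (adjusted p = 0.0535 in limma). With variances that did not follow the mean level, 0 list genes were called. SURF4, SEC23A, TMEM41B, SCARB1 and LPIN2 overlap other RefSeq genes, as do RBM47, PROX1, MCFD2, LRP1, LRP5, ATF6 and MBTPS2. How reads in such overlaps were assigned is unknown here.

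Normalized counts summed to between 17912507 and 18613685 per library, and the absolute depth is unknown. Of the 10 columnar epithelial markers 8 had a mean of at least 100 normalized counts. KRT7 and TFF3 were low, with means of 22.5 and 27.1 over the 4 libraries. The list sums ran from 89768 in siHNF4A 2 to 102267 in control 2. Of the 10, EPCAM, KRT8, KRT18 and CLDN4 fell and MUC1 and KRT19 rose. That is 60.0% called against 14.1% of all tested genes, a higher share than in any list of lipid genes. MUC1 went from 2145 and 2332 to 4687 and 4169 normalized counts, while CLDN4 and KRT19 were each not called in 3 of the 4 fits that left out 1 library (adjusted p up to 0.125 and 0.152 in limma without siHNF4A replicate 1). Of 10 hepatocyte markers 7 had a mean under 10 and 0 were called. ALB had 0 and 0 normalized counts in the controls and 1.504 and 1.097 after knockdown, and AHSG had 2.45 and 2.22 in the controls and 0 and 0 after knockdown. The controls held more genes at 0 (5479 and 5640 against 4260 and 4362). CPS1, with the largest fold change among the 3 tested (-1.77), was called without control replicate 1 (adjusted p = 0.0334 in limma) or siHNF4A replicate 1 (0.0493), and was -1.13 without control replicate 2 and -0.59 without siHNF4A replicate 2, not called. Of 10 enterocyte markers 9 were tested and 3 were called, which is 33.3% against 14.1% of all tested genes. The 6 not called were VIL1, KRT20, SLC5A1, DPP4, CDHR2 and CDHR5. SI rose, ALPI fell from 23.4 and 15.1 to 2.62 and 1.97 normalized counts and ANPEP fell from 81.0 and 46.9 to 15.6 and 26.0. The mean of ALPI, 10.8, passed the filter through the control libraries alone. SI was not called after quantile normalization (adjusted p = 0.0570 in limma). Without the filter SI, ALPI and ANPEP were not called (adjusted p = 0.101, 0.0641 and 0.122 in limma). These calls were lost in 3, 2 and 2 of the 4 fits that left out 1 library: SI without control replicate 2 or either knockdown replicate (adjusted p up to 0.194 in limma), ALPI without control replicate 1 or siHNF4A replicate 2 (0.0663 and 0.0661), and ANPEP without control replicate 1 or siHNF4A replicate 1 (0.0793 and 0.118). The 8 markers of fibroblasts, endothelium and blood cells summed to between 199 and 338. Of these 5 were tested and VWF rose, which is 20.0% called. Its log2 fold change of 2.31 was 2.13 without siHNF4A replicate 1, where it was not called. The 6 squamous markers in the table summed to between 17.4 and 38.4, with KRT6A at 0 in all libraries and 2 tested. KRT14 rose, from 0.637 and 2.29 to 12.2 and 25.7 normalized counts. Its mean of 10.2 passed the filter through the knockdown libraries alone, and it was not called without the filter (adjusted p = 0.0783 in limma). Its log2 fold change of 3.02 was 3.53 without siHNF4A replicate 1 and 2.51 without siHNF4A replicate 2, not called in either. KRT5 had 32.6 and 12.1 in the controls and 6.14 and 10.5 after knockdown, without a call. KRT13 had 1.05 and 0.640 in the controls and 0 and 0 after knockdown. The part of any of these shifts in the values of the lipid export genes was not tested.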

How the data were processed

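RNA-seq libraries of ESO26 cells, 2 with siRNA knockdown of HNF4A and 2 controls, were grouped by their titles. The table gives normalized counts, a signal value the authors deposited after a normalization that is not given in the sources used here. Per the submitters' processing notes the tools included Bowtie, Bowtie2, Trim Galore, Picard and MACS2 and the build was hg19, with no role stated. The values are fractional, so no count model was fitted.

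Values were transformed to log2(normalized count + 1). Genes with a mean of at least 10 over the 4 libraries were tested in R 4.3.3 by limma 3.58.1, with moderated variances that follow the mean level, in 1 fit across all genes, adjusted by Benjamini-Hochberg, and called under 0.05. This scale understates changes of low genes. With 2 libraries per group the smallest p of an exact permutation test is 0.333, and each p rests on variances shared across genes. The procedure was tested on simulated data.

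The members and lists were chosen with earlier results of these data known. Named genes are the members, HNF4A, every called gene of a list with at most 6 calls (otherwise the 3 with the smallest adjusted p in each direction) and the largest fold change among the tested genes of each list; P4HB, SAR1B, FABP5, APOE, ZNF259, LMAN1, MCFD2, the CREB3 relatives, the other uncalled genes of vesicle export (MIA2 among them) and the other uncalled cell type markers in the text were added after their values were seen. Older symbols were matched through RefSeq synonyms, and gene overlaps come from RefSeq of GRCh38.p14. Alternatives were pseudocounts of 0.5 and 5, a mean of at least 50, no filter, quantile normalization, median ratio rescaling, no trend, a replicate block and each library left out. Peaks were not placed near genes, since no hg19 annotation was used here, and levels per coding length were not computed. The values of 1 called regulator and 1 promoter motif are not reported here.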

Additional observations from a re-analysis of the deposited data

How the results depend on the processing

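Each alternative called 0 of the listed genes it tested: 7 without the filter, and otherwise A1CF, FABP2 and, except with a mean of at least 50, APOM. APOB, MTTP, APOA1 and FABP1 have a test in the fit without the filter only. A1CF, not called in any fit, lay between -0.13 and 0.045 with 1 library left out, above 0 without control replicate 2, and TAGLN, a neighbour of the APOA1 cluster with 57.7 normalized counts in control 1, lay between -1.55 without control replicate 2, where it was called (adjusted p = 0.0229 in limma), and 0.26 without control replicate 1. HNF4A kept a log2 fold change of -1.97 without the variance trend but was no longer past the threshold (adjusted p = 0.0919 in limma), and lay between -2.11 and -1.82 with 1 library left out. Called genes numbered 2202, 726 without the filter and 0 without the trend (3524 at an unadjusted p under 0.05), and 1013 to 2449 with 1 library left out. List genes called numbered 24, 8 without the filter, 0 without the trend and 11 to 27 with 1 library left out. A left-out library leaves a group with 1 sample, taken to vary like the other group; beyond that the causes were not tested.

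The replicate block gave 2428 called genes, 0 of the listed genes and 27 list genes, and changed the call of APOBEC1 alone among 42 other named genes. Deviations from the group means of equally numbered libraries had a Pearson correlation of -0.019 across 15577 genes, which are not independent replicates, and the numbers were read as names only. The absolute depth is unknown; APOA1, APOB, MTTP and FABP1 had at most 10.2 of the steps given for APOA1, and their 95% intervals include 0. With a mean of at least 50, genes below it and the squamous marker list gave no value.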
